A study of Mus musculus with 5 samples.

Results

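The olfactory receptor gene clusters of the mouse genome were examined for H3K9me3, a histone mark of silent chromatin, in CD8+ T cells. A deposited region was taken as part of a cluster when its start lay inside 1 of 10 fixed windows of GRCm38, and 717 of the 46409 regions (1.54%) did. The class I window, on chromosome 7, held 79 of them, from position 102788516 to 105211035, and the 9 class II windows held the other 638. The windows covered 21.4 Mb and 951 receptor genes and pseudogenes, of which 728 are annotated as protein-coding. Splenic CD8+ T cells of OT-I, Cas9 transgenic mice were separated with magnetic beads, so both groups share the OT-I receptor transgene and the Cas9 transgene. Both groups were electroporated with ribonucleoprotein made from 300 pmol guide with 300 pmol Cas9 protein, and were left for 72 hours. The control group (sgNTC, genotype label Prdm12-wt) received a non-targeting guide and the other group (sgPrdm12, genotype label Prdm12-ko) a guide against Prdm12, which encodes a zinc finger protein of the PRDM family. Each group had 2 libraries made by CUT&Tag, in which a transposase is brought by an antibody to chromatin that carries the mark and tags the DNA there. The labels place replicate 1 of each group in batch 1 and replicate 2 in batch 2. The sources used here give neither the age of the mice nor whether each library is a separate animal. The p-values therefore rest on a spread between libraries that may be technical only. The IgG library was not analysed here.

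Olfactory receptors are G protein-coupled receptors that detect odorants, and their genes form the largest gene family of the mouse. Class I receptors, the family shared with fish, sit in a single cluster that surrounds the beta-globin genes, whereas class II receptors lie in many clusters on many chromosomes. Each olfactory sensory neuron expresses 1 allele of 1 receptor gene, and the receptor genes that stay silent in those neurons are known to carry H3K9me3. The clusters are silent in most tissues.

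The promoters that a region touched are shown because they were the exception in these clusters. The promoter table held 623 of the 728 protein-coding receptor genes of the windows (85.6%), with 627 promoters. Each ran from 250 bases before to 50 bases after the annotated gene start, and no start of transcription was measured. A region overlapped 4 of the 627 (0.638%, Wilson 95% interval 0.248 to 1.63), against 745 of all 32851 promoters (2.27%). In these 4 the 50 bases after the gene start open with ATG, the start codon. The annotated start there appears to be that of the coding sequence. Whether the other receptor genes are annotated in this way, and where their transcription begins, was not tested. These rates may therefore compare different parts of genes. The sequences below are from RefSeq, build GRCm38.p6, 5′ to 3′ on the strand of the gene, and capitals mark the bases that lay in a deposited region. Olfr577 (chr7:102973941-102974240, minus strand) and Olfr606 (chr7:103451089-103451388, plus strand) are class I receptor genes, and Olfr967 (chr9:39750138-39750437, plus strand) and Olfr1265 (chr2:90036671-90036970, plus strand) are class II receptor genes.
Olfr577: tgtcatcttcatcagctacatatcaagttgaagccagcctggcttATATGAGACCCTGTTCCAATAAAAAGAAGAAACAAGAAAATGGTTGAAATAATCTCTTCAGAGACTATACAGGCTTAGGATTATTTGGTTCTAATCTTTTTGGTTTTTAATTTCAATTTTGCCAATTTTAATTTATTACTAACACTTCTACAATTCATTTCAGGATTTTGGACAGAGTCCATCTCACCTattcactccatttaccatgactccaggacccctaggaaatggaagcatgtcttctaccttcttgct
Olfr606: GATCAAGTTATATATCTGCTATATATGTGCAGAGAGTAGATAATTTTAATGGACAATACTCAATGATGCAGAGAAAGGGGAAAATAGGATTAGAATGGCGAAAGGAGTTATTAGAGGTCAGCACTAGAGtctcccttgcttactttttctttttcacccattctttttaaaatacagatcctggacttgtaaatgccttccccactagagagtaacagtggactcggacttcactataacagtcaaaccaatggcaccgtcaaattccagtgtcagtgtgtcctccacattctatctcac
Olfr967: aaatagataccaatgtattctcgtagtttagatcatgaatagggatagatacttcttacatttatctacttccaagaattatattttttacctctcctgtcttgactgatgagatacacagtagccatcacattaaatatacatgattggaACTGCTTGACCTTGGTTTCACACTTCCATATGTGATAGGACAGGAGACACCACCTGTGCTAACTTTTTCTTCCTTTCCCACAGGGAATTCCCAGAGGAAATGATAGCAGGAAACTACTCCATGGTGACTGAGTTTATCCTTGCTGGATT
Olfr1265: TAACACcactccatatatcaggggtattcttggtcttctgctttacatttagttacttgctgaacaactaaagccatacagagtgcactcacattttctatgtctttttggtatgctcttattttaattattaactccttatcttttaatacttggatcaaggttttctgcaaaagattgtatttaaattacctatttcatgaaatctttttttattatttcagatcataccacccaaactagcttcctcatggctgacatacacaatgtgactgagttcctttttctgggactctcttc

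The region lay wholly within the Olfr577 promoter and covered 189 of its bases, and it covered 129 bases of the Olfr606 promoter, 149 of the Olfr967 promoter and 6 of the Olfr1265 promoter. The region at Olfr606 held 12 and 9 counts in sgNTC-1 and sgNTC-2 and 37 and 19 in sgPrdm12-1 and sgPrdm12-2. The region at Olfr967 held 3, 14, 31 and 15 counts in the same order, and the one at Olfr1265 held 13, 15, 39 and 6. On the scale of trimmed mean of M values (TMM), which sets the libraries to a common level, the log2 fold changes of sgPrdm12 over sgNTC were -0.17, -0.12 and -1.02, and the smallest adjusted p among these was 0.862 in edgeR's quasi-likelihood test. The region at Olfr577, with 6, 7, 17 and 6 counts, was too low to be tested. Of the 300 bases of each promoter, G and C made up 35.7% at Olfr577, 39.3% at Olfr606, 38% at Olfr967 and 33.7% at Olfr1265. The mean was 37.4% over the class I promoters and 33.9% over the 522 class II promoters, against 53.8% over all promoters. TAATTA, a core sequence bound by many homeodomain proteins and read on both strands, occurred in 15 of the class I promoters (14.3%), 20.9% of the class II promoters and 5.29% of all promoters, and of the 4 shown here in that of Olfr1265. A match is only a string of letters in this window. The shares of G and C and of matches describe windows at annotated starts. For receptor genes these may lie at start codons and not at promoters.

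Library totals over all regions ran from 843673 to 2353807 counts. In the clusters the median region had 8 and 9 counts in the sgNTC libraries against 32 and 17 in the sgPrdm12 libraries, so a single region had few reads in the control group. The regions of the clusters held 0.698% (Wilson 95% interval 0.680 to 0.716) and 0.662% of all counts in sgNTC and 1.06% and 0.965% in sgPrdm12. Without the 10 most covered regions of the genome, 0 of which lay in the clusters, these shares were 1.16%, 1.18%, 1.30% and 1.24%. Wilson intervals cover counting error only. H3K9me3 does not measure expression, so the cell type was looked at only as a count of marker genes with a region within 5 kb. There were 1 of 12 T cell genes (Cd2), 0 of 5 B cell genes, 1 of 5 myeloid genes (Adgre1), 0 of 5 erythroid genes and 1 of 3 natural killer cell genes (Klrb1c), and these counts do not test the label.

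H3K9me3 regions were more closely spaced in the olfactory receptor clusters than in most of the genome. The 10 windows together held 33.5 regions per Mb, whereas the median of the 2565 bins of 1 Mb elsewhere that held a region was 16, with an interquartile range of 8 to 26. The regions themselves were ordinary in size and coverage. Their median width was 291 bp against 282 bp over all regions, and their median level was 11.3 counts per 1e6 of library size (CPM, on the TMM scale, as are all CPM values here) against 10.9. There is 1 region list for all libraries, so its densities have no replicate error and are given as a description.

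The clusters differed from each other in density. The distal chromosome 2 window (111.2 to 112.1 Mb) held 60.0 regions per Mb and the chromosome 10 window (128.9 to 130.2 Mb) held 54.6, above 99.8% and 99.5% of the bins. The chromosome 16 window (58.6 to 59.4 Mb) held 41.25, the proximal chromosome 2 window (85.1 to 90.5 Mb), which has the most receptor genes of the 10 (293), held 39.3, and the chromosome 9 window (37.6 to 40.2 Mb) held 35.0. The distal chromosome 7 window, whose regions ran from 106418270 to 108876202, held 30.0 and the chromosome 11 window (73.0 to 74.4 Mb) 24.3. The class I window followed with 23.9 regions per Mb, above 69.7% of the bins, then the chromosome 19 window (12.0 to 14.2 Mb) with 22.7 and the chromosome 6 window (42.5 to 43.4 Mb) with 16.7, which was near the median bin. The number of receptor genes per Mb did not set the class I window apart, with 46.7 against 44.0 over the class II windows.

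**Figure D1:**
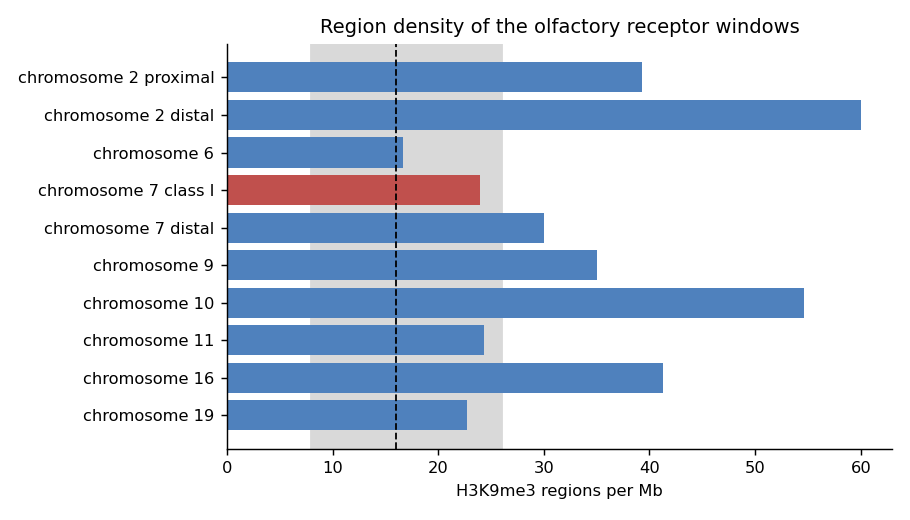
Deposited H3K9me3 regions per Mb (x axis) in each of the 10 olfactory receptor windows (bars, class I in red and class II in blue), with the median and interquartile range of 1 Mb bins elsewhere. The bars run from 16.7 on chromosome 6 to 60.0 in the distal chromosome 2 window, and the class I window stands at 23.9.

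Nearly all region bases lay within 20 kb of a receptor gene, while their share within 5 kb of one was close to that of all window bases. The share of window bases within 20 kb of a receptor gene was 79.2%, and 92.5% of the region bases lay there. Within 5 kb, receptor genes included, the shares were 46.4% and 48.1%. Density within 20 kb of a receptor gene was 28.6 regions per Mb in the class I window and 40.7 in the class II windows. Beyond 20 kb it was 13.1 and 12.1, below the median bin of 16 but within the interquartile range of the bins. In the class II windows where it was computed singly, it ran from 4.59 (chromosome 19) to 18.7 (distal chromosome 7). Receptor gene spans themselves made up 7.17% of window bases and 12.0% of region bases, while the promoters described above made up 0.878% of window bases and 0.201% of region bases. Of the 717 regions, 87 overlapped a receptor gene (called inside it below), 269 lay outside but within 5 kb, 306 at 5 to 20 kb and 55 farther away. Pseudogenes count as receptor genes in these spans and distances, and 65 of the 87 regions overlapped a protein-coding receptor gene.

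A region within 5 kb was found for 242 of the 728 protein-coding receptor genes (33.2%), against 25.7% of protein-coding genes outside the windows. The share was 23.8% for class I, with 29 genes, and 35.1% for class II, with 213 genes. It was highest on chromosome 10 (47.4%) and chromosome 9 (41.1%) and lowest on chromosome 19 (20.3%). Other protein-coding genes in the windows had a region in 16 of 108 cases (14.8%), and receptor genes outside the windows in 84 of 382. Most marked receptor genes had a single region. There were 200 with 1 region, 34 with 2, 6 with 3 and 2 with 4, the last being Olfr183 on chromosome 16 and Olfr478 on chromosome 7. Neighbouring receptor genes can share a region, and reads from near-identical receptor copies may have been split or misplaced, so the assignment to a single receptor is uncertain.

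Within the class I window the mark was in 2 blocks. The first region began 788.5 kb into the window, 51 regions lay up to position 103835811 of chromosome 7, and 28 lay after position 104501540. The 666 kb between them held no region. That stretch contains 18 protein-coding receptor genes and 17 other protein-coding genes. Among these are 3 beta-globin genes (Hbb-bh2, Hbb-bh1 and Hbb-y) and 9 Trim genes, which encode tripartite motif proteins. Gaps of like length were seen elsewhere. The chromosome 19 window had a stretch of 682 kb without a region, from 12366368 to 13048124, and the distal chromosome 7 window 1 of 404 kb that held 20 protein-coding receptor genes and 0 other protein-coding genes.

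No olfactory receptor cluster differed in H3K9me3 between sgPrdm12 and sgNTC by more than the error of the 4 libraries. In the class I window the counts came to 269 and 302 CPM per Mb in sgNTC-1 and sgNTC-2 and 290 and 297 in sgPrdm12-1 and sgPrdm12-2. The sgPrdm12 values lay between the sgNTC values. The log2 fold change of sgPrdm12 over sgNTC was 0.04 (SE 0.12, 95% interval -0.21 to 0.29), with 0.11 in batch 1 and -0.02 in batch 2. In bulk libraries the share of cells that carry the mark and the amount per cell cannot be told apart.

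The class II windows gave values of like size. The proximal chromosome 2 window, the largest, had 467 and 456 CPM per Mb in sgNTC and 455 and 459 in sgPrdm12, a log2 fold change of -0.02 (SE 0.14). The distal chromosome 2 window had 755 and 819 against 849 and 801, or 0.07 (SE 0.11). The chromosome 10 window, whose level was close to that one, had 797 and 751 against 796 and 801, or 0.05 (SE 0.12). In all 3 the groups overlapped. The distal chromosome 7 window had 360 and 397 against 404 and 386 (0.06, SE 0.12), and the chromosome 9 window 388 and 434 against 381 and 402 (-0.07, SE 0.12). The chromosome 11 window had 263 and 299 against 267 and 270 (-0.07, SE 0.11), and the chromosome 19 window 212 and 230 against 231 and 197 (-0.04, SE 0.11). These 4 overlapped between groups as well. The groups were apart in 2 windows. Over all 46409 listed regions, both sgPrdm12 libraries were above both sgNTC libraries in CPM in 19.9% and below them in 14.2%. The share over the 1 Mb bins is not given here, so the count of 2 does not set these windows apart. On chromosome 6, sgNTC had 308 and 295 CPM per Mb and sgPrdm12 257 and 285, a log2 fold change of -0.16 (SE 0.12, 95% interval -0.42 to 0.11). Relative to the median bin it was -0.07 without sgPrdm12 replicate 1 and -0.23 without sgPrdm12 replicate 2, and -0.32 with only regions within 5 kb of a receptor gene. On chromosome 16, sgNTC had 492 and 544 and sgPrdm12 557 and 551, or 0.10 (SE 0.11, -0.13 to 0.32).

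**Figure D2:**
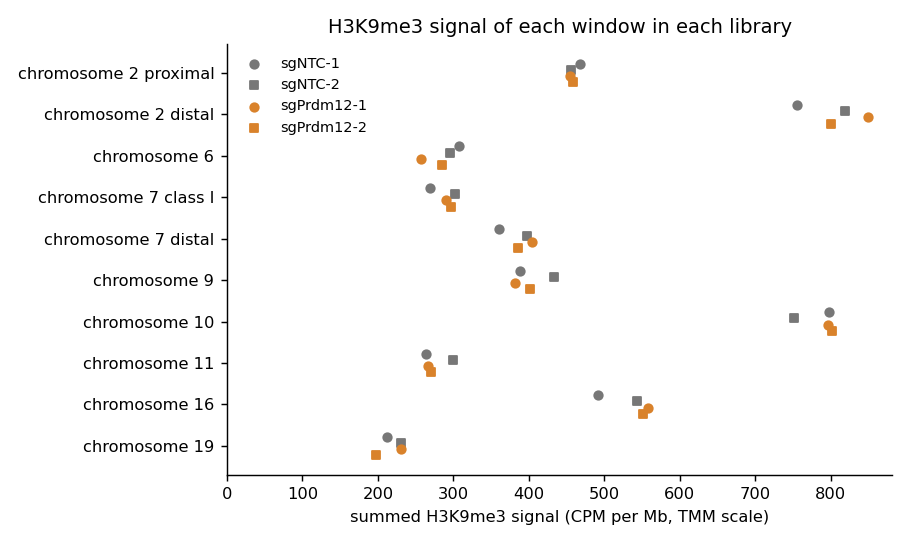
H3K9me3 level of each olfactory receptor window as CPM per Mb (TMM scale) in the 4 libraries, each library with its own marker. The windows span 197 to 849 CPM per Mb, while the libraries of a window lie close together and the groups overlap in all but the chromosome 6 and chromosome 16 windows.

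In edgeR's quasi-likelihood test over the 10 windows and the 1 Mb bins, with Benjamini-Hochberg adjustment, 0 windows were higher and 0 lower in sgPrdm12, where 0.975% of all windows and bins were called higher and 2.26% lower. The adjusted p ran from 0.578 to 0.976, and 0 windows had an unadjusted p under 0.05. DESeq2 and limma-voom called 0 as well. The sign was positive in 5 windows and negative in 5, and it differed between the batches in 7. The log2 fold changes, from -0.16 to 0.10, lay within the interquartile range of all windows and bins, which was -0.17 to 0.15. The farthest end of the 95% intervals was at -0.42, on chromosome 6, a 1.34-fold difference, so larger changes lay outside the intervals of all 10 windows. This reading depends on the scale. With library totals in place of TMM factors, all 10 windows were called higher, as were 69.1% of windows and bins, and with the authors' constants all 10 again, as were 91.1%. On those scales the median bin itself moved by 0.57 and 1.02, and relative to it the windows stayed between -0.16 and 0.10.

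**Figure D3:**
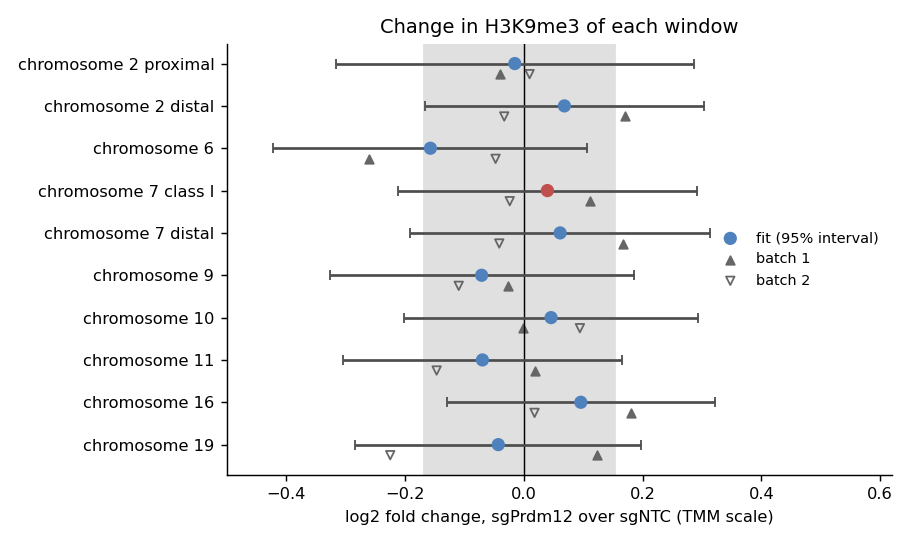
Log2 fold change of sgPrdm12 over sgNTC for each olfactory receptor window (circles, class I in red, with 95% intervals from edgeR), with the values of batch 1 and batch 2 as triangles and the interquartile range of all windows and bins in grey. The circles lie between -0.16 and 0.10 and each interval spans 0.

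Class I was then set against class II within each library, a ratio that no scaling of the library can move. The log2 ratio of class I to class II counts was -3.12 in sgNTC-1, -3.00 in sgNTC-2, -3.04 in sgPrdm12-1 and -2.99 in sgPrdm12-2. The means were -3.06 ± 0.086 (SD, n = 2) and -3.01 ± 0.034 (SD, n = 2), a difference of 0.04, with 0.08 in batch 1 and 0.01 in batch 2. The groups overlapped, and the exact two-sided permutation test over the 4 libraries gave p = 0.667, where the smallest p this design allows is 0.333. The sign turned when sgNTC replicate 1 was left out (-0.02).

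Of the 717 regions, 602 had enough counts to be tested. Of these, 0 were higher and 0 lower in sgPrdm12 at an adjusted p under 0.05 in edgeR's test, against 0.11% and 0.377% of all regions tested. DESeq2 and limma-voom called 0 too. An unadjusted p under 0.05 was reached by 18 of the 602 (2.99%) in edgeR, 9 in each direction, against 6.42% of all regions. It was reached by 6 of the 602 in DESeq2, against 2.41% of all regions, and by 26 in limma-voom, against 5.04%. The median log2 fold change was -0.04 in class I and -0.04 in class II, against -0.01 over all regions. The calls depend on the scale here too. With library totals 5 regions were called higher, against 2.5% of all regions, and with the authors' constants 93 (15.4%), against 20.8%. Values within 1 of 0 on the log2 scale made up 90.0% of the tested regions of the clusters, against 86.9% of all. Counting every region, both sgPrdm12 libraries were above both sgNTC libraries in CPM in 119 of 717 (16.6%), against 19.9% of all regions, and below them in 14.8%, against 14.2%.

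The most covered region of all clusters lay on chromosome 9 (39945588 to 39946570), 2394 bp from the class II receptor gene Olfr974. It held 45 and 33 counts in sgNTC against 124 and 64 in sgPrdm12, a mean of 48.3 CPM and a log2 fold change of -0.32 (SE 0.35). The next, on chromosome 16 (58904301 to 58904970), held 32, 40, 90 and 50 counts in the same order, which was 46.6 and 51.0 CPM against 31.9 and 32.6, with a log2 fold change of -0.60 (SE 0.36, adjusted p = 0.879 in edgeR). On chromosome 10 (129303795 to 129304509) the counts were 28, 21, 107 and 86, and the log2 fold change 0.47 (SE 0.37). Only the chromosome 16 region among these 3 had groups that did not overlap in CPM. The most covered regions of the other class II windows had log2 fold changes from -0.41 on chromosome 11 to 0.48 in the distal chromosome 2 window, with adjusted p of at least 0.959.

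The region with the smallest adjusted p (0.184, edgeR) lay on chromosome 19 (13957933 to 13958232), 37961 bp from Olfr1505. Its counts were 18 and 18 in sgNTC and 25 and 6 in sgPrdm12, or 26.2 and 23.0 CPM against 8.9 and 3.9. Both sgPrdm12 libraries were lower, with a log2 fold change of -1.86 (SE 0.58). In the distal chromosome 7 window a region inside the lncRNA gene Gm39065 (106563633 to 106564114) held 4, 4, 64 and 28 counts and had a log2 fold change of 1.90 (SE 0.65, adjusted p = 0.283). In the proximal chromosome 2 window a region 8388 bp from Olfr1239 held 2, 2, 48 and 16 counts and had 2.32 (SE 0.88, adjusted p = 0.442). On chromosome 10 a region 3616 bp from the pseudogene Olfr783-ps1 held 16, 4, 92 and 52 counts and had 1.26 (SE 0.48, adjusted p = 0.434). These 4 were picked for the smallest p in their windows, a choice that favours groups lying apart. In all 4 the libraries did not overlap between groups, and none passed the edgeR test. A region beside the lncRNA gene Gm39066 (108182923 to 108183117 of chromosome 7), chosen after its values were seen, held 0 and 0 counts in sgNTC against 26 and 16 in sgPrdm12. It entered the test through its sgPrdm12 counts alone. Set against a floor of 3 counts over the sgNTC group, its pooled sgPrdm12 counts were 4.72-fold higher. That value takes no account of the spread between libraries or of how the region was chosen. The region did not pass, with an adjusted p of 0.291 in edgeR.

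Summed over regions within 5 kb, 205 receptor genes of the windows were tested. Of these, 1 was higher in sgPrdm12 and 0 were lower at an adjusted p under 0.05, against 1.08% and 1.71% of all genes tested. With library totals 5 were higher, against 15.1% of all genes, and with the authors' constants 40, against 44.3%. An unadjusted p under 0.05 was reached by 5 (2.44%), against 11.9% of all genes. The median log2 fold change was -0.14 over the 205, -0.10 over the 24 class I and -0.15 over the 181 class II receptor genes, against -0.04 over all genes. The medians of the windows ran from -0.51 over 5 genes on chromosome 6 to 0.06 over 9 genes on chromosome 16. In the 66 tested receptor genes outside the windows the median was -0.44, and 0 were called, with 6 at an unadjusted p under 0.05.

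The gene that passed was Olfr585, a class I receptor gene at 103097743 to 103098699 of chromosome 7. It had 1 region, 970 bp wide, from 103100920 to 103101890 and 2221 bp from the gene. The region held 14 and 16 counts in sgNTC against 138 and 78 in sgPrdm12, or 20.4 and 20.4 CPM against 48.9 and 50.8, and the groups did not overlap. Its gene-level log2 fold change was 1.28 (SE 0.37, adjusted p = 0.0281 in edgeR), with 1.23 in batch 1 and 1.34 in batch 2. The same counts in the test over regions had an adjusted p of 0.187. The call at the gene was lost with the batches as a replicate block (adjusted p = 0.0628), in DESeq2 (0.231), in limma-voom (0.165) and when any 1 library was left out (0.0899 to 0.259).

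Other class I and class II receptor genes had values on both sides of 0. Olfr675, also class I, had 4 and 6 counts in sgNTC against 39 and 25 in sgPrdm12, a log2 fold change of 1.13 (SE 0.73, adjusted p = 0.624 in edgeR). Among class II genes, Olfr149 on chromosome 9 had 5, 5, 42 and 28 counts and 1.26 (adjusted p = 0.493), and Olfr930 nearby had 6, 18, 65 and 55 and 0.84 (adjusted p = 0.476). Relative to the median gene, Olfr930 was at 0.31 without sgNTC replicate 1 and at 1.68 without sgNTC replicate 2. Against these stood Olfr771 on chromosome 10 with 24, 27, 53 and 19 counts and -1.12 (SE 0.43, adjusted p = 0.160). Olfr447 on chromosome 6 had 19, 23, 29 and 26 counts and -1.10 (adjusted p = 0.284), and Olfr1229 on chromosome 2 had 17, 18, 41 and 12 and -1.05 (adjusted p = 0.418). Olfr1265, whose promoter is shown above, had 30, 28, 75 and 29 counts over 2 regions and -0.78 (SE 0.38, adjusted p = 0.379). The receptor genes with the most regions were nearer to 0. Olfr183 had 24, 31, 133 and 103 counts and 0.59 (SE 0.32, adjusted p = 0.459), Olfr478 had 39, 50, 212 and 107 and 0.26 (SE 0.27), and Olfr1109 had 25, 25, 83 and 35 and -0.37 (SE 0.38). Olfr974, beside the most covered region, had 53, 45, 159 and 80 counts and -0.31 (SE 0.28). The remaining receptor genes picked by the fixed rule lay between -0.91 (Olfr775) and 1.15 (Olfr1277), and none of them passed. Olfr1277, with 7 and 2 counts in sgNTC against 50 and 15 in sgPrdm12, was at 2.39 relative to the median gene without sgNTC replicate 1 and at 0.41 without sgNTC replicate 2.

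Where in a cluster a region lay went with its value, a pattern picked after the data were seen. The median log2 fold change was -0.27 for regions inside a receptor gene, -0.13 for those within 5 kb, 0.04 at 5 to 20 kb and 0.06 farther away. Of the 75 tested regions inside receptor genes, 25.3% were above 0, against 46.8% of tested cluster regions and 49.2% of all tested regions. None of the 75 reached an unadjusted p under 0.05 in edgeR, against 2.99% and 6.42% of those sets. The smallest adjusted p among the 75 was 0.790. As a comparison of libraries, the 87 regions that overlap a receptor gene held 759 and 891 counts in sgNTC against 2736 and 1525 in sgPrdm12. That was 12.9% (Wilson 95% interval 12.1 to 13.8) and 12.7% (11.9 to 13.5) of the counts of the windows in sgNTC, against 11.01% (10.6 to 11.4) and 11.3% (10.8 to 11.9) in sgPrdm12. Both sgPrdm12 libraries were lower. On the log2 scale of inside over other counts the difference was -0.22, with -0.26 in batch 1 and -0.19 in batch 2. With only the 65 regions inside protein-coding receptor genes it was -0.17, with -0.17 in batch 1 and -0.18 in batch 2. The exact permutation p was 0.333, the smallest that 2 against 2 libraries allow, so this design cannot pass 0.05.

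The same share was taken by class. In the class I window, 16 regions inside receptor genes held 26.6% and 27.5% of the counts in sgNTC and 20.5% and 21.9% in sgPrdm12, a difference of -0.47 on the log2 scale. In the class II windows, 71 such regions held 11.3% and 10.8% against 9.86% and 9.99%, a difference of -0.18. Both classes were lower in sgPrdm12 in both batches without overlap. The class I value minus the class II value was -0.29 on that scale, with -0.28 in batch 1 and -0.30 in batch 2 (exact permutation p = 0.333, again the smallest possible). Among the 14 tested class I regions inside receptor genes, 1 of the 2 in Olfr575 was positive (0.16) and the other 13 were negative. Olfr664, which is not annotated as protein-coding, had 13 and 22 counts in sgNTC against 27 and 22 in sgPrdm12, with -1.01. Olfr609, the most covered, had 14, 29, 80 and 43 and -0.04. Neither gene was picked by the fixed rule for named items. The mean log2 share was lower in sgPrdm12 in 6 of the 10 windows, which is near an even split. It was lower without overlap in the proximal chromosome 2, chromosome 6, class I and chromosome 9 windows. In each of these the exact permutation p was 0.333, the smallest possible, so randomly labelled libraries would often lie apart too. The chromosome 16 window went the other way without overlap, with 12.2% and 12.3% in sgNTC and 13.9% and 18.3% in sgPrdm12.

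Receptor genes outside the windows were set against their own 5 kb flanks, not against all other regions as in the windows. Their 30 regions inside the gene held 28.7% and 28.5% of the counts of genes and 5 kb flanks in sgNTC and 26.2% and 24.5% in sgPrdm12, a difference of -0.24 (exact permutation p = 0.333). The libraries were the same 4, so this is no separate repeat. Outside the windows the median log2 fold change was -0.63 over 22 tested regions inside receptor genes and -0.25 over 59 in the flanks. Regions inside other protein-coding genes had a median log2 fold change of -0.01, as did those inside other protein-coding genes of at most 3 kb. The sgNTC libraries were the shallower ones in both batches, and the part of depth in this pattern was not tested.

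**Figure D4:**
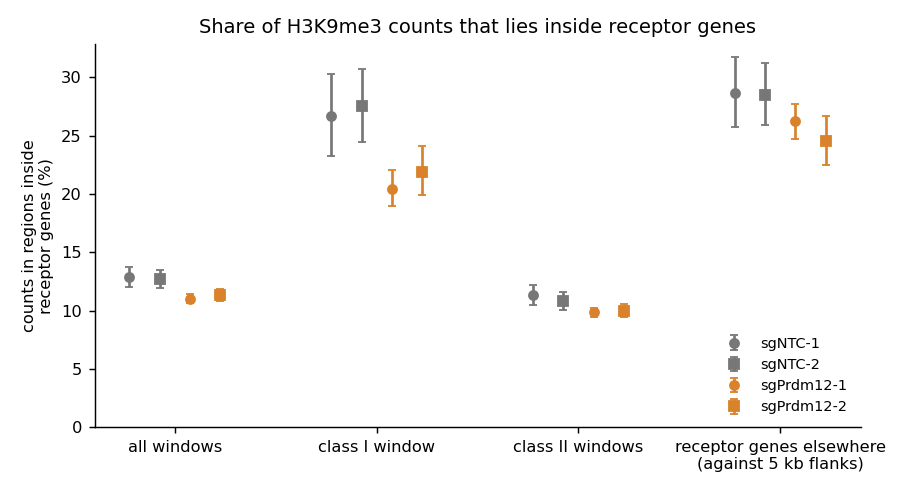
Percent of the H3K9me3 counts of the windows that lies in regions inside receptor genes, for each library with its Wilson 95% interval, over all windows, by class, and for receptor genes elsewhere against their 5 kb flanks. Over all windows the sgNTC libraries stand at 12.9% and 12.7% and the sgPrdm12 libraries at 11.01% and 11.3%.

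Genes other than receptors in the windows were few. Of 108 such protein-coding genes 15 were tested and 0 passed, against 1.08% higher and 1.71% lower over all genes tested. Their median log2 fold change was 0.01, and 1 had an unadjusted p under 0.05 in edgeR, against 11.9% of all genes. That gene was Cd63, which encodes a tetraspanin of late endosomes and lies in the chromosome 10 window, with 17 and 17 counts in sgNTC against 36 and 10 in sgPrdm12 (-1.22, SE 0.56, adjusted p = 0.331 in edgeR). Of the Trim genes of the class I window, 1 of 12 had a region, namely Trim30d, with 1, 2, 29 and 15 counts and an adjusted p of 0.446. Of 7 beta-globin genes, Hbb-bs and Hbb-bh2 had a region each, with log2 fold changes of -0.76 and -0.65 and adjusted p of 0.885 and 0.917. The region of Hbb-bs held 7, 8, 22 and 6 counts, so that both sgPrdm12 libraries were lower in CPM, while the groups overlapped for Hbb-bh2.

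Genes that act with olfactory receptors were looked at as lists. Of 27 genes of odorant signalling and receptor choice, 11 had a region (40.7%), against 25.9% of all protein-coding genes. All 11 were tested and 0 passed, against 1.08% higher and 1.71% lower over all genes tested. None reached an unadjusted p under 0.05 in edgeR, against 11.9% of all genes. The list's median log2 fold change was -0.12, against -0.04 over all genes. Ano2, the calcium-activated chloride channel of olfactory cilia, had 11 regions with 112 and 136 counts in sgNTC against 588 and 338 in sgPrdm12, and a log2 fold change of 0.34 (SE 0.20, adjusted p = 0.521). Lhx2, a homeodomain factor needed for receptor expression, had 35, 37, 143 and 80 counts and 0.06. Ldb1, its cofactor, had 7, 6, 44 and 22 and 0.75 (adjusted p = 0.797), and Ebf4 had 14, 23, 55 and 10 and -0.88 (adjusted p = 0.521). Of 10 genes of receptor silencing, 2 had a region. Cbx3, which encodes a reader of methylated H3K9, had 12, 26, 120 and 67 counts and 0.74 (SE 0.37, adjusted p = 0.386), and Ehmt2, which encodes an H3K9 methyltransferase, had 2, 9, 3 and 15 and -0.52.

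Other chemosensory receptor families gave a background for the clusters. A region within 5 kb was found for 62 of 124 Vmn2r genes (50%) and 38 of 231 Vmn1r genes (16.5%), which encode vomeronasal receptors, and for 1 of 15 Taar genes, which encode trace amine receptors. It was found for 0 of 7 Fpr genes, which encode formyl peptide receptors, and not for Gucy2d, a guanylate cyclase of a distinct set of olfactory neurons. The median log2 fold change was -0.02 over 50 tested Vmn2r genes and -0.15 over 32 tested Vmn1r genes. Of these families 0 genes passed in edgeR, against 1.08% higher and 1.71% lower over all genes tested. An unadjusted p under 0.05 was reached by 3 Vmn2r and 2 Vmn1r genes, against 11.9% of all genes.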

How the data were processed

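H3K9me3 was measured by CUT&Tag in 2 sgNTC and 2 sgPrdm12 libraries. The authors deposited 1 table of 46409 regions, with raw read counts and a normalized signal for each library. Within a library the deposited signal is proportional to the count, by a constant whose derivation the sources used here do not give. Trimmomatic, Bowtie2, MACS2 and DiffBind are listed, with no versions, in the submitters' processing notes. The rules for calling and merging regions, and for reads that map to several places, are not stated in these sources. A list weighted to the deeper sgPrdm12 libraries would hold more regions that are high there. The build listed in the notes is GRCm39. Set against chromosome lengths known from memory, since no file supplied them, 66 regions ended beyond GRCm39 chromosomes and 0 beyond GRCm38 chromosomes. Coordinates were therefore taken as GRCm38, like the windows, and may count from 0 or 1.

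Counts were tested with edgeR 4.0.16 (limma 3.58.1, R 4.3.3) by the quasi-likelihood test with TMM factors, filterByExpr and no block. Adjusted p-values are Benjamini-Hochberg values over 37390 regions, 7775 genes, or 2565 windows and 1 Mb bins, which used the TMM factors of the regions. Gene counts are sums over regions within 5 kb of RefSeq protein-coding or lncRNA spans. Class ratios were compared by exact permutation. The edgeR test was checked on simulated counts with changes larger than those of the windows, so this check does not bear on small changes. The members and lists were chosen with earlier results of these data known.

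In each window the rule for named items took the region with the highest mean CPM, the region with the smallest p, the 2 receptor genes with the smallest p and the 1 with the highest mean CPM. It also took the 3 receptor genes with the most regions and all that passed. The labelled batch pairs same-numbered libraries. The correlation of the differences between replicates in the 2 groups was 0.0029 over tested regions and 0.055 over those of the windows. Alternatives were DESeq2 size factors, library totals, the authors' constants, no filter, DESeq2 1.42.0, limma-voom, a replicate block, each library left out, an adjusted p of 0.1, gene spans without flanks, bins of 0.5 Mb, only regions within 5 kb of a receptor gene, and leaving out the most covered region. Only regions within 20 kb of a receptor gene, values relative to the median bin, and all values of the share inside receptor genes, were added after seeing the data.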

Additional observations from a re-analysis of the deposited data

How the results depend on the processing

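With library totals and with the authors' constants, 5 and 93 regions of the clusters were higher, 5 and 40 receptor genes and 10 and 10 windows, against 0, 1 and 0 with TMM factors. Over all features tested, the shares called higher on those scales were 2.5% and 20.8% of regions and 15.1% and 44.3% of genes. For windows and bins they were 69.1% and 91.1%. Those scalings moved the median region by 0.56 and 1.00. The receptor gene call was 0 in DESeq2, limma-voom and the replicate block (batch pairing), and 0 to 0 with each library left out. It was 0 with gene spans without flanks too, where Olfr585 has no region to test. The block changed no other call. Class I minus class II ranged from -0.018 to 0.10 with each library left out. It was -0.019 with only regions within 20 kb of a receptor gene, chosen after seeing the data, and -0.019 with the distal chromosome 7 window alone as class II. The other alternatives kept its sign.

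Relative to the median bin, the windows ranged from -0.32 to 0.17 over 140 alternatives, and 9 of these turned the sign. With only regions within 5 kb of a receptor gene the distal chromosome 2, class I and distal chromosome 7 windows had -0.12, -0.032 and -0.011, and without the most covered region of each bin the class I window had -0.0027. With each library left out the ranges were -0.050 to 0.026 (proximal chromosome 2), -0.020 to 0.11 (class I), -0.014 to 0.11 (chromosome 10), -0.14 to 0.0077 (chromosome 11) and -0.16 to 0.056 (chromosome 19). The same ranges were -0.41 to 0.16 for Olfr1299, -0.11 to 1.81 for Olfr1467, -0.82 to 0.017 for Olfr473 and -0.35 to 0.33 for Olfr796. The sign held but the value moved by over 1.5 times for other items, among them the distal chromosome 2, chromosome 9 and chromosome 16 windows, Olfr1229 (-1.57 to -0.68) and the region near Olfr783-ps1 (0.39 to 2.62). For the most covered regions they were -0.36 to 0.55 on chromosome 19, -0.46 to 0.65 in the distal chromosome 7 window and -0.82 to 0.00048 on chromosome 11. Olfr796 was also -0.0022 with library totals, -0.024 without a filter, -0.10 in limma-voom and -0.0068 with the replicate block, and the distal chromosome 7 region was -0.0025 without a filter. The cause was not tested. The share inside receptor genes, added after seeing the data, stayed between -0.27 and -0.17 over 20 alternatives. Low counts in sgNTC limit what single regions can show.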
